A study of Mus musculus with 12 samples.

Results

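Interscapular brown fat (BAT) and inguinal white fat (IWAT), a subcutaneous depot, were compared across all genes after surgical denervation. The 6 libraries titled LFD BAT or LFD IWAT, 3 of each, were chosen from the 12 of the series by those titles. No measured value entered that rule, but earlier results of these data were known when the depots and gene lists were chosen. Both groups were male, wild-type C57BL/6J mice aged 6 to 10 weeks that had eaten a standard low-fat diet. Surgical denervation was shared by both groups, and no innervated depot was analysed here, so every value below describes denervated fat. Whether the 3 replicates of a depot were 3 different mice is not stated in the labels, so a p-value here reflects only how these samples varied, which may be technical.

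Brown adipocytes burn fuel for heat through UCP1, a protein of the inner mitochondrial membrane that lets protons return without making ATP. Sympathetic nerves release noradrenaline onto beta-adrenergic receptors and so drive this programme, which inguinal white adipocytes can also acquire in part, as beige cells. Interscapular brown fat arises from somites that also form trunk muscle, and fat depots keep the Hox code of their body position, with group numbers that increase from the head end to the tail end.

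Depth ranged from 15960920 to 25633413 estimated counts a library, with a mitochondrial share of 4.4% to 19.0%. Levels are given in CPM, counts scaled to an effective library size. Where no read was counted, up to 3 counts remain possible, which is 0.147 to 0.236 CPM in these libraries and covers counting error only. Over all genes, the first principal component of the 6 libraries held 58.0% of the variance and did not separate the depots. On it, BAT libraries 1, 2 and 3 lay at -119.4, -55.49 and 46.6, against -17.05, 30.87 and 114.4 for IWAT libraries 1, 2 and 3. On the second component, with 19.4%, the BAT libraries lay at 17.85, 34.06 and 48.23, against -74.06, -41.85 and 15.76 for the IWAT libraries, and the depots did not overlap. The genes with the highest mean TPM (a level per transcript length) among nuclear coding genes were Scd1, Car3, Fabp4 and Cfd in BAT, and the same 4 genes led in IWAT. These are abundant in fat cells. Scd1, a fatty acid desaturase, averaged 7237 ± 2981 TPM in BAT and 6163 ± 3523 TPM in IWAT (SD, n = 3 each).

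With 3 libraries a depot, edgeR's quasi-likelihood test called only the ribosomal protein gene Rps16 and a copy of it. These were 2 of 19154 genes tested, or 0.0104%, at a Benjamini-Hochberg adjusted p under 0.05, both higher in BAT. At an unadjusted p under 0.05 stood 737 genes (3.85%), of which 483 (2.52%) were higher and 254 (1.33%) lower in BAT. The 3 BAT libraries all lay above the 3 IWAT libraries in 691 genes (3.61%) and all below them in 617 genes (3.22%), and such genes are called separated below. The median log2 fold change of all genes tested was -0.04, and -0.28 when libraries were scaled by their size alone. DESeq2 called 168 genes (0.877%; 161 higher, 7 lower in BAT), and edgeR called 92 (0.489%; 87 higher, 5 lower) when the 3 retroperitoneal white fat (RWAT) libraries were left out of the shared estimate of spread. RWAT library 3 held skeletal muscle markers, and leaving out that library alone gave 97 calls (0.471%), an alternative chosen after seeing the data. Leaving out BAT library 1 or 2 left 1 call, and leaving out BAT library 3 or any IWAT library left 0 calls, with 511 to 2252 genes at an unadjusted p under 0.05.

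Rps16 encodes a protein of the small ribosomal subunit and lies on chromosome 7 (GRCm38, chr7:28350652-28353155, forward strand). It measured 64.6, 55.5 and 81.5 CPM in BAT libraries 1 to 3, against 20.7, 14.5 and 17.2 CPM in IWAT libraries 1 to 3. Every BAT library lay above every IWAT library, and the log2 fold change was 1.94 ± 0.22 (SE, edgeR adjusted p = 0.0332). Rps16-ps2, a processed pseudogene on chromosome 5 (chr5:129128077-129128517, reverse strand), measured 86.4, 57.3 and 83.9 CPM in BAT, against 19.0, 16.7 and 14.3 CPM in IWAT. Its groups did not overlap either, and its log2 fold change was 2.19 (SE 0.23, edgeR adjusted p = 0.0332). A processed pseudogene is a spliced transcript that was copied back into the genome, so it carries no introns. Over all 441 bases Rps16-ps2 is identical to the Rps16 coding sequence, and reads from this stretch cannot be told apart between them. Gm8623, also a copy by sequence, has 431 of 436 bases identical. Summed, the 3 entries with the name of Rps16 or of its numbered copies measured 151.1, 112.8 and 165.5 CPM in BAT. In IWAT they measured 39.7, 31.2 and 31.5 CPM, with a log2 fold change of 2.07 and an edgeR adjusted p of 0.0349. This sum was chosen after seeing the data. Rps16 was called under 8 and Rps16-ps2 under 9 of the 18 alternatives run, and the adjusted p of Rps16 over them ranged from 4.25e-13 to 0.553.

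A second processed copy was counted in BAT and not in IWAT. Gm12918, a processed pseudogene in GRCm38 at chr4:10848420-10849055 on the forward strand, is identical over its 636 bases to the coding sequence of Rpl13, a protein of the large ribosomal subunit. It measured 84.5, 20.4 and 30.7 CPM in BAT, and 0 counts after rounding in all 3 IWAT libraries. Against 3 counts over the IWAT group this is at least 794-fold higher in BAT, and the edgeR adjusted p was 0.0604, above the threshold. That bound covers counting error only. Reads from this stretch cannot be told apart between Gm12918 and Rpl13, so the fold also depends on how they were divided. The level of both together was not tested. Rpl13 itself, on chromosome 8, measured 209.2, 214.3 and 295.5 CPM in BAT, against 282.7, 273 and 296.4 CPM in IWAT, and its groups overlapped (log2 fold change -0.25, edgeR adjusted p = 0.998). The first 150 bases of both copies are shown because they are letter for letter those of the parent genes, with the start codon in capitals; the sequences are GRCm38, chr5:129128368-129128517 on the reverse strand and chr4:10848420-10848569 on the forward strand.
Rps16-ps2: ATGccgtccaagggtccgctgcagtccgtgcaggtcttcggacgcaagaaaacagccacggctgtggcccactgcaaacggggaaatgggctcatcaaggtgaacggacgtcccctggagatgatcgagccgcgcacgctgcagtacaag
Gm12918: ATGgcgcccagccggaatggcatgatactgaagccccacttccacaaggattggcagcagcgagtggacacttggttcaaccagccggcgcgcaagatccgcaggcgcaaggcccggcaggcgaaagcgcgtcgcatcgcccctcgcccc
Levels of these genes did not split brown from white fat when the other denervated depots were set beside them. Rps16 averaged 67.2 ± 13.2 CPM in BAT and 17.5 ± 3.09 CPM in IWAT, beside 86.4 CPM in epididymal white fat (EWAT) and 22.2 CPM in RWAT. Gm12918 averaged 45.2 ± 34.4 CPM in BAT and 0 in IWAT, beside 59.3 CPM in EWAT and 0 in RWAT. The labels name no preparation batch for any depot, and a batch that ran with this split cannot be told apart from the depots, the 2 calls included.

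**Figure D1:**
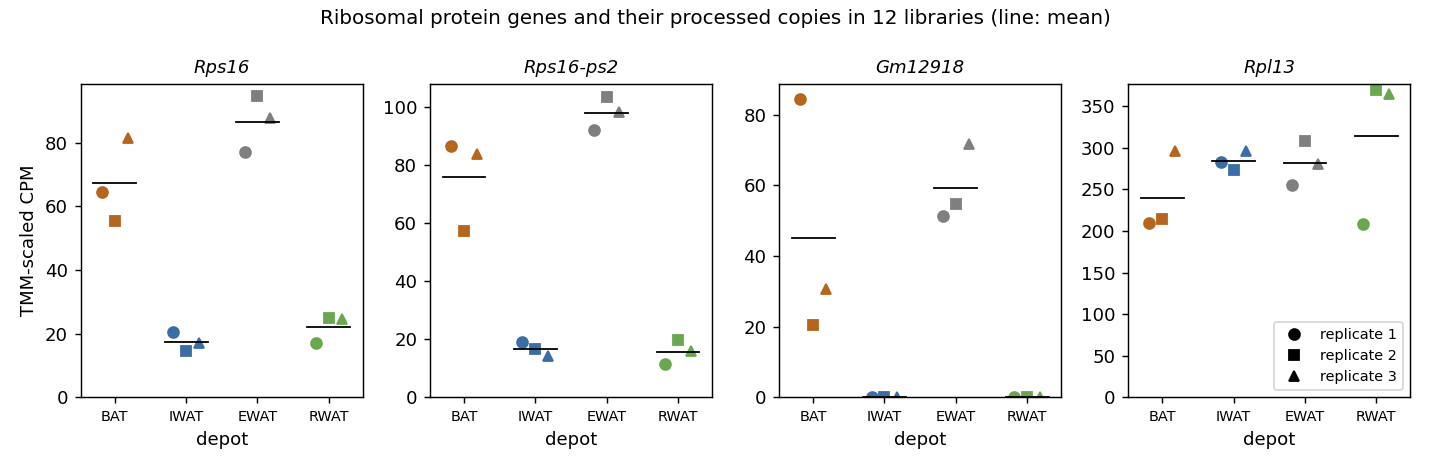
Levels of Rps16, Rps16-ps2, Gm12918 and Rpl13 (vertical axes, TMM-scaled CPM) in the 3 libraries of each of 4 denervated depots, with the mean as a line. BAT and EWAT libraries sit high and IWAT and RWAT libraries low for the first 3 genes, with Gm12918 at 0 in IWAT and RWAT, while Rpl13 overlaps between BAT and IWAT.

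Of the 6 tested Hox genes of the tail-end groups, 4 were near 0 in BAT and readily measured in IWAT, and none passed the test of edgeR. Of 39 Hox genes, 26 had enough counts to be tested, none was called by edgeR, and 4 were separated higher and 5 lower in BAT. All 6 tested genes of groups 9 and 10 had negative log2 fold changes, with a median of -4.05, against -0.04 for all genes, and 4 of them were separated. Summed, they reached 4.64, 3.73 and 1.91 CPM in BAT, against 48.4, 44.5 and 29.8 CPM in IWAT. The 20 tested genes of groups 1 to 8 summed to 128.5, 137.7 and 75.8 CPM in BAT, against 120.5, 103.7 and 72.2 CPM in IWAT, with a median log2 fold change of 0.18. The median of all 26 was -0.14, and 0.07 without BAT library 3 or 0.03 without IWAT library 1. In bulk tissue, fewer cells of a type and less RNA per cell cannot be told apart.

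Hoxc10, a homeobox transcription factor of the lumbar body region, measured 0.0787, 0 and 0 CPM in BAT, against 10.6, 9.64 and 5.95 CPM in IWAT. BAT held 1 count in all, against 500 counts in IWAT, a ratio of 423 for IWAT over BAT with an exact 95% counting interval of 75.5 to 16700. The edgeR log2 fold change was -8.29 ± 1.04 with an adjusted p of 0.0554, and 5 of 18 alternatives called it. Its neighbour Hoxc9 measured 0.472, 0.916 and 0.196 CPM in BAT, against 8.22, 7.64 and 5.43 CPM in IWAT (log2 fold change -3.75, edgeR adjusted p = 0.106). Both genes were low in every BAT library and their groups lay far apart. In the Hoxa cluster, Hoxa9 measured 1.02, 0.785 and 0.0978 CPM in BAT, against 13.8, 14.6 and 9.66 CPM in IWAT (log2 fold change -4.35, edgeR adjusted p = 0.269). Hoxa10 measured 0.63, 0.327 and 0.0489 CPM in BAT, against 13.2, 9.97 and 6.27 CPM in IWAT (log2 fold change -4.93, edgeR adjusted p = 0.481). The other 2 genes of these groups, Hoxb9 and Hoxd9, lay between 0.294 and 2.05 CPM in all 6 libraries, and their depots overlapped.

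Hoxa5, a gene nearer the head end of the same cluster, showed the opposite order. It measured 11.7, 6.08 and 5.53 CPM in BAT, against 1.29, 1.27 and 1.31 CPM in IWAT. The IWAT libraries were nearly equal and all BAT libraries lay above them (log2 fold change 2.58 ± 0.43, edgeR adjusted p = 0.269). Also separated higher were Hoxa2 (log2 fold change 1.26), Hoxc4 (1.10) and Hoxd8 (0.29), and Hoxb7 was separated lower (-0.91); none of these passed the edgeR test. The 5 genes Hoxa5, Hoxa9, Hoxa10, Hoxc9 and Hoxc10 were each called by DESeq2, without the RWAT libraries, and with the replicate number as a block in the 6 libraries alone, a fit with 178 calls (1.02%). In the other depots Hoxc10 measured 0.739, 0.214 and 0.65 CPM in EWAT and 7.80, 5.18 and 1.47 CPM in RWAT. BAT thus had the lowest measured levels of all 4 depots, and no BAT library overlapped with a white fat library. Against EWAT this rests on a few counts, as up to 0.196 CPM remains possible in BAT library 2, close to EWAT library 2. Hoxa9 measured 1.37, 0.642 and 1.45 CPM in EWAT, which overlapped with BAT, and 14.9, 6.98 and 5.55 CPM in RWAT.

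**Figure D2:**
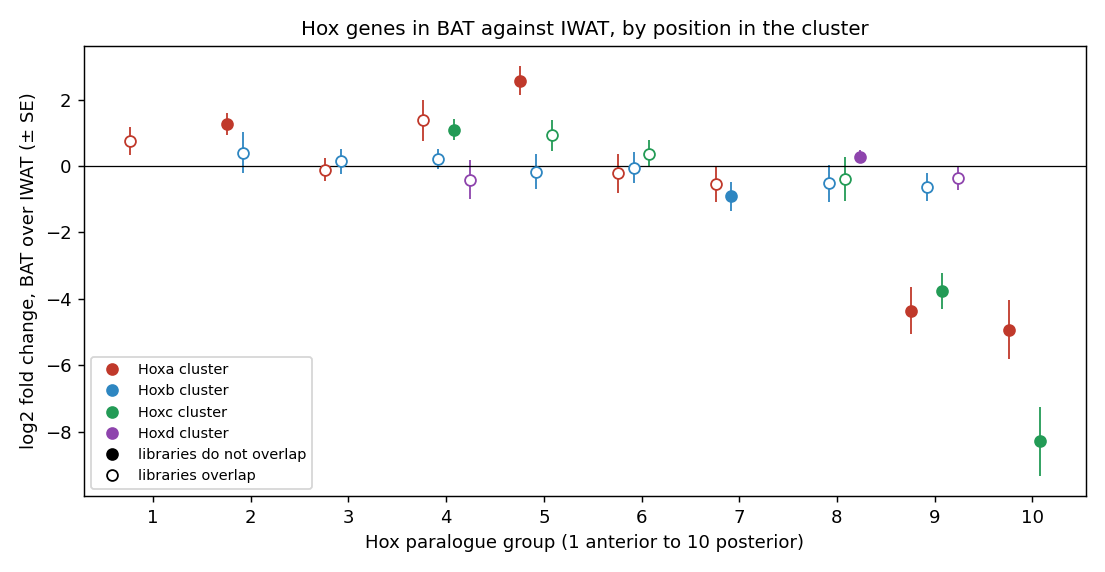
Log2 fold change of BAT over IWAT (vertical axis, with SE) for the 26 tested Hox genes by paralogue group (horizontal axis) and cluster (colour); filled points mark genes whose BAT and IWAT libraries do not overlap. Groups 1 to 8 lie between -0.91 for Hoxb7 and 2.58 for Hoxa5, with 4 separated above 0, and 4 of the 6 genes of groups 9 and 10 lie between -3.75 and -8.29.

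The start-site windows of Hoxa5, Hoxa9 and Hoxa10 are shown because these genes sit within one cluster and differed in direction. The set of RefSeq start-site windows used here (GRCm38.p6) held an entry for 3 of the 5 Hox genes, without Hoxc9 and Hoxc10. The 250 bases before the start are printed, on the reverse strand of chromosome 6: chr6:52204588-52204837 for Hoxa5, chr6:52227371-52227620 for Hoxa9 and chr6:52240855-52241104 for the first of 2 Hoxa10 starts. Capitals mark CCAAT, which reads ATTGG where it lies on the opposite strand; it was searched on both strands, as were TATAAA and AGGTCA.
Hoxa5: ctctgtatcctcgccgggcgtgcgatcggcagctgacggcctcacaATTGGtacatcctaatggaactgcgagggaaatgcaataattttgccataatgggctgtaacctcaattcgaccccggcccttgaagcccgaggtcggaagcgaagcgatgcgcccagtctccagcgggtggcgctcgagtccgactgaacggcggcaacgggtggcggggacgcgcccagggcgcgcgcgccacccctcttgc
Hoxa9: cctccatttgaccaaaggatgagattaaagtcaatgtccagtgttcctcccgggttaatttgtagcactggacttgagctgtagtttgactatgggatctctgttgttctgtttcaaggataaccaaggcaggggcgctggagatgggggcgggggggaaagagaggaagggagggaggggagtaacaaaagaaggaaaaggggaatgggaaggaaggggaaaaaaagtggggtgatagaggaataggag
Hoxa10: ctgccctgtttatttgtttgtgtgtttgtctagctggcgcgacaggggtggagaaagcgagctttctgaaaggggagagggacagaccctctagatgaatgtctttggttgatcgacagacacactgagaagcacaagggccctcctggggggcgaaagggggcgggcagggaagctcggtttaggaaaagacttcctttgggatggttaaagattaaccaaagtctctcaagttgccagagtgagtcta
CCAAT was found once before Hoxa5, on the opposite strand with its first base 204 bases before the start, and occurs in 33.8% of all 32851 windows of this length. Neither TATAAA (12.4% of windows) nor AGGTCA (14.0%) was found in these 3 windows. The window of the second Hoxa10 start (chr6:52234940-52235189, not printed) held TATAAA 160 bases and CCAAT 64 bases before the start, both on the opposite strand. The Hoxa5 window held 28 CG dinucleotides, the Hoxa9 window 3, this Hoxa10 window 7 and that of the second Hoxa10 start 20, against a median of 6 over all windows. A match is a description of letters and not of a bound site.

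Several regulators of the brown lineage lay higher in every BAT library than in any IWAT library, without an edgeR call. Of 22 such regulators 19 were tested, 0 were called by edgeR, 4 were separated higher and 0 lower, and the median log2 fold change was 0.24 (0.02 without TMM, 0.15 without BAT library 1 and 0.02 without IWAT library 3). DESeq2 called 2, both higher. Zic1, a zinc finger factor of the somite-derived brown lineage, measured 3.07, 1.90 and 13.3 CPM in BAT, against 0.0996, 0.111 and 0.366 CPM in IWAT. Its log2 fold change was 4.95 ± 1.14 with an edgeR adjusted p of 0.733, and DESeq2 gave 0.000842. It also measured 1.90 CPM in RWAT library 3, the white fat library with muscle markers, against 0.179 and 0.18 CPM in the other 2 RWAT libraries, and the part of muscle in its values was not tested. Lhx8, a LIM homeobox factor used as a marker of interscapular brown fat, measured 5.90, 14.3 and 11.2 CPM in BAT, against 2.19, 4.15 and 3.71 CPM in IWAT (log2 fold change 1.64, edgeR adjusted p = 0.733), and 0.163 CPM in RWAT library 3. Each BAT library, library 2 included, lay above each IWAT library for both genes. Sim1, a transcription factor, was separated at 1.42, 2.55 and 0.44 CPM in BAT, against 0.149, 0.111 and 0.209 CPM in IWAT.

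The coregulator Prdm16, which drives brown over muscle and white fate, measured 20.6, 10.7 and 10.7 CPM in BAT, against 17.5, 14.4 and 4.49 CPM in IWAT (log2 fold change 0.20, edgeR adjusted p = 0.998). Ebf2, which marks brown and beige precursors, measured 65.8, 66.3 and 43.7 CPM in BAT, against 52.0, 62.8 and 33.7 CPM in IWAT (0.24, edgeR adjusted p = 0.998). The libraries of the 2 depots overlapped for both factors. Among 19 developmental genes of subcutaneous fat and limb, 17 were tested, with 0 called by edgeR (DESeq2 called 1 higher and 3 lower, Hoxa10, Hoxc9 and Hoxc10), 3 separated higher, 5 lower and a median log2 fold change of -0.29. Shox2, a limb homeobox factor, measured 13.8, 9.36 and 4.84 CPM in BAT, against 28.4, 16.3 and 15.1 CPM in IWAT, a separated but uncalled gene (log2 fold change -1.10, edgeR adjusted p = 0.998). Tbx15, a T-box factor, overlapped at 36.8, 38.3 and 24.7 CPM in BAT, against 27.0, 21.1 and 26.9 CPM in IWAT. Of 20 beige and white marker genes in the files, 19 were tested, with 0 called by edgeR (DESeq2 called Hoxc9, lower), 2 separated higher, 2 lower and a median of -0.38 (0.07 without IWAT library 1). Tmem26, a beige cell marker, lay at 0.315, 0.523 and 6.55 CPM in BAT, against 3.64, 6.09 and 9.97 CPM in IWAT, with overlap.

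The heat-producing genes did not pass the test, and Ucp1 was high in BAT libraries 1 and 3 but not in BAT library 2. Of 24 thermogenic genes tested, all had positive log2 fold changes with a median of 1.97, yet edgeR called 0 and only Cox7a1, Fabp3 and Esrra were separated, while DESeq2 called Cox7a1, Fabp3 and Slc27a2. Ucp1 measured 2962, 32.2 and 702.3 CPM in BAT, against 47.6, 129.8 and 21.5 CPM in IWAT. BAT library 2 therefore lay below 2 of the 3 IWAT libraries, and the log2 fold change of 4.22 ± 1.59 had an edgeR adjusted p of 0.998. Cidea, a lipid droplet protein of brown fat, measured 852.9, 52.1 and 236.0 CPM in BAT, against 104.3, 117.0 and 11.1 CPM in IWAT (log2 fold change 2.30). Dio2, which activates thyroid hormone within the cell, measured 120.8, 7.98 and 44.8 CPM in BAT, against 5.58, 24.5 and 7.68 CPM in IWAT (2.20). Both followed the order of Ucp1 across the BAT libraries, and both overlapped between depots.

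Elovl3, a fatty acid elongase induced by cold, measured 75.9, 2.49 and 11.8 CPM in BAT, against 1.99, 4.10 and 0.418 CPM in IWAT (log2 fold change 3.79, edgeR adjusted p = 0.844). Slc27a2, a fatty acid transporter and acyl-CoA synthetase, measured 100.2, 4.12 and 32.2 CPM in BAT, against 1.74, 8.31 and 0.783 CPM in IWAT (3.66, edgeR adjusted p = 0.733). Here too BAT library 2 lay below IWAT library 2. Cox7a1, a cytochrome c oxidase subunit of heart, muscle and brown fat, was separated at 351.4, 23.0 and 70.0 CPM in BAT, against 19.7, 20.8 and 3.19 CPM in IWAT (log2 fold change 3.35, edgeR adjusted p = 0.733). Fabp3, the fatty acid binding protein of heart and muscle, was separated at 188.9, 15.1 and 42.9 CPM in BAT, against 0.747, 5.32 and 0.94 CPM in IWAT (5.14, edgeR adjusted p = 0.733). These genes are also active in muscle, whose markers summed to 2612 to 22070 CPM in BAT and 28.6 to 62.3 CPM in IWAT, and the part of muscle in their values was not tested. The coactivator Ppargc1a, a driver of mitochondrial biogenesis, measured 30.7, 14.8 and 14.97 CPM in BAT, against 15.1, 12.96 and 4.86 CPM in IWAT, and overlapped. Without BAT library 1 the median of the 24 genes was 0.52, and without BAT library 2 it was 2.38.

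**Figure D3:**
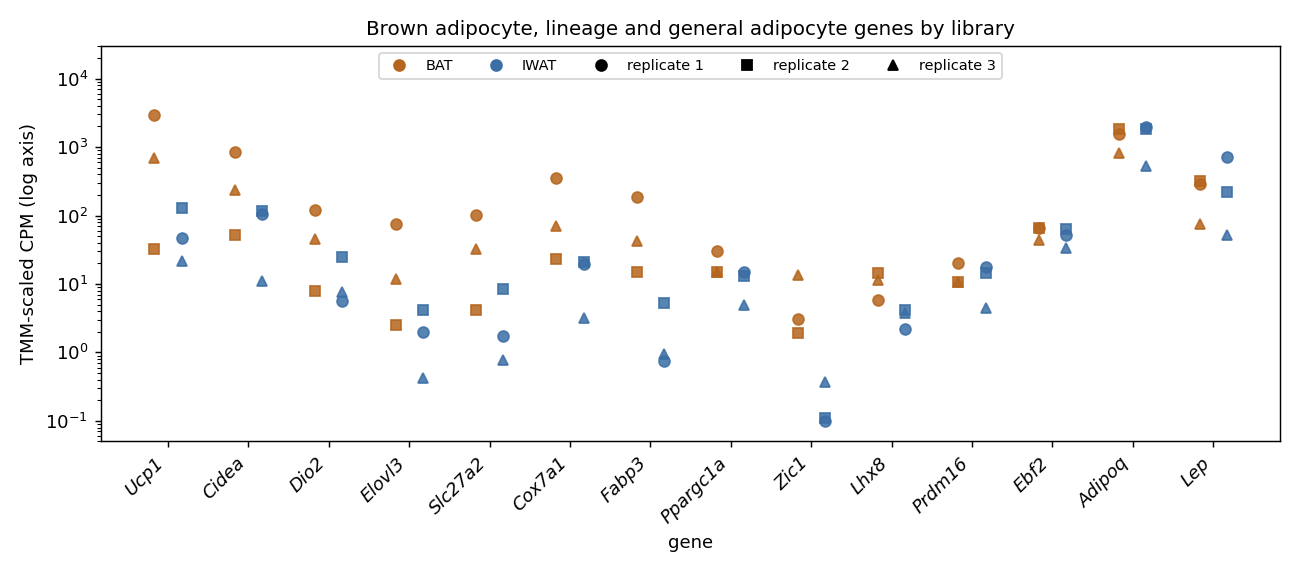
Levels of 14 brown adipocyte, lineage and general adipocyte genes (vertical axis, TMM-scaled CPM, log scale) in BAT libraries (brown, left of each pair) and IWAT libraries (blue, right), with a marker shape for each replicate. Zic1 and Lhx8 separate the depots in every library, while the Ucp1 level of BAT library 2, 32.2 CPM, lies among the IWAT levels.

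Genes of the respiratory chain had mostly positive log2 fold changes, and none passed the test. Of 75 nuclear genes for respiratory chain and ATP synthase subunits, 74 had positive log2 fold changes with a median of 0.79, 0 were called and 1 was separated, Atp5g1, a subunit of the ATP synthase ring. Atp5g1 measured 93.8, 63.2 and 50.4 CPM in BAT, against 42.4, 36.8 and 47.2 CPM in IWAT (log2 fold change 0.71, edgeR adjusted p = 0.809). All 13 messenger RNAs of the mitochondrial genome had positive values with a median of 0.85, 0 calls and 2 separated. One of these, mt-Co1, a catalytic subunit of cytochrome c oxidase, measured 38450, 20090 and 19270 CPM in BAT, against 18150, 17280 and 6969 CPM in IWAT. The lowest BAT library was thus close to the highest IWAT library. Without BAT library 1 the median of the nuclear list was 0.03 and that of the mitochondrial messenger RNAs 0.47.

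The fuel-handling lists also had positive medians and no calls. Fatty acid oxidation (26 genes) had a median log2 fold change of 0.76, the citric acid cycle (16 genes) 1.00, glucose uptake and glycolysis (25 genes) 0.78 and branched-chain amino acid breakdown (19 genes) 0.34. The median was 0.63 for de novo lipogenesis (22 genes) and 0.09 for lipolysis and lipid droplet genes (21 genes), and the last was -0.13 without TMM, -0.24 without BAT library 1 and -0.29 without IWAT library 3. None of these 6 lists held a called gene, and 1 gene among them was separated, Pfkm, the muscle form of phosphofructokinase, at 257.3, 194.0 and 49.9 CPM in BAT, against 32.2, 28.9 and 12.2 CPM in IWAT. Cpt1b, the muscle-type carnitine palmitoyltransferase that admits fatty acids into mitochondria, measured 548.0, 25.7 and 111.7 CPM in BAT, against 29.4, 39.9 and 4.70 CPM in IWAT (log2 fold change 3.21, edgeR adjusted p = 0.998). Acaa2, the last enzyme of mitochondrial fatty acid oxidation, measured 1476, 142.3 and 360.5 CPM in BAT, against 255.5, 240.4 and 85.9 CPM in IWAT (1.77). In both, BAT library 2 was within the IWAT range. Without BAT library 1 the medians were -0.01 for fatty acid oxidation, -0.03 for branched-chain amino acid breakdown, 0.02 for glycolysis, 0.05 for lipogenesis and 0.16 for the citric acid cycle.

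Lipogenic genes differed more between libraries of a depot than between depots. Fasn, fatty acid synthase, measured 55180, 32580 and 8260 CPM in BAT, against 31710, 15220 and 2028 CPM in IWAT. The whole list summed to 168400, 100600 and 31610 CPM in BAT, against 111900, 58990 and 11880 CPM in IWAT, so the library numbered 3 was the lowest in both depots. General fat cell genes overlapped between the depots. Adipoq, the hormone adiponectin, measured 1553, 1829 and 813.5 CPM in BAT, against 1947, 1817 and 530.9 CPM in IWAT (log2 fold change -0.03 with SE 0.73). Pparg, the master regulator of fat cells, measured 306.5, 217.0 and 144.2 CPM in BAT, against 260.0, 208.9 and 90.3 CPM in IWAT (0.26). Lep, the hormone leptin, measured 289.3, 318.7 and 75.9 CPM in BAT, against 713.4, 222.0 and 52.2 CPM in IWAT (-0.53), and only IWAT library 1 exceeded the BAT range. The 18 general adipocyte regulators had a median of 0.20, 0 calls and 0 separated; the median was -0.02 without TMM, -0.05 without BAT library 1 and -0.15 without IWAT library 3. The 20 tested adipokines had a median of -0.14 with 0 calls, and 0.03 without BAT library 3 or 0.04 without IWAT library 1. Of the adipokines 2 were separated higher, among them Agt, angiotensinogen, at 52.2, 49.1 and 11.6 CPM in BAT, against 9.57, 7.14 and 8.20 CPM in IWAT (log2 fold change 2.18, edgeR adjusted p = 0.998).

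The receiving end of the sympathetic system was present in both denervated depots. Adrb3, the main beta-adrenergic receptor of mouse fat cells, measured 208.1, 345.6 and 70.8 CPM in BAT, against 163.4, 192.5 and 38.0 CPM in IWAT, and overlapped (log2 fold change 0.66, edgeR adjusted p = 0.998). Adrb1, the receptor with a role in brown fat precursors, was separated at 13.6, 6.61 and 4.403 CPM in BAT, against 3.69, 3.10 and 1.31 CPM in IWAT (1.60, edgeR adjusted p = 0.998). Over 18 tested genes of adrenergic signalling the median was 0.36 (0.02 without BAT library 1 and 0.06 without IWAT library 3), with 0 calls by edgeR or DESeq2 and 2 separated higher. On the nerve side, 23 of 26 neuron, catecholamine and Schwann cell genes were tested, with a median of -0.07 (0.11 without BAT library 3), 0 calls and 1 separated lower. Th, which encodes the rate-limiting enzyme of noradrenaline synthesis, was too low to test, at 0.0787, 0.327 and 0 CPM in BAT, against 0, 0 and 0 CPM in IWAT. With no innervated depot analysed, this RNA level does not show how many axons were left. S100b, made by Schwann cells and by brown fat cells, measured 55.3, 1.96 and 12.5 CPM in BAT, against 2.49, 4.04 and 2.30 CPM in IWAT, and BAT library 2 lay below every IWAT library.

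Skeletal muscle markers had the highest median of the 37 gene lists. All 20 muscle markers were separated higher in BAT, with a median log2 fold change of 10.1. None was called by the edgeR fit of 12 libraries, and DESeq2 called 18 of them. The 20 genes summed to 22070, 15610 and 2612 CPM in BAT, against 62.3, 53.2 and 28.6 CPM in IWAT. Acta1, skeletal muscle actin, measured 2621, 1607 and 263.0 CPM in BAT, against 2.29, 3.32 and 0.94 CPM in IWAT (log2 fold change 9.42 ± 2.21, edgeR adjusted p = 0.733). Ttn, the giant sarcomere protein titin, measured 7484, 4779 and 795.5 CPM in BAT, against 8.52, 10.97 and 6.95 CPM in IWAT (8.95, edgeR adjusted p = 0.733). Myh1 and Myh2, fast myosin heavy chains, were separated as well, at 1106, 1023 and 101 CPM in BAT, against 0.199, 0.886 and 0.783 CPM in IWAT for Myh1. Pvalb, a calcium buffer of fast fibres, had 9464 counts in BAT against 1 count in IWAT, a ratio of 11200 with an exact 95% counting interval of 2010 to 442000. RWAT library 3 summed to 18340 CPM for the same list, and that spread enters the shared estimate of the fit of 12 libraries. Without the 3 RWAT libraries edgeR called 18 of the 20 markers, and with the replicate number as a block in the 6 libraries it called 19. The fit of the 6 BAT and IWAT libraries without that block, which also holds no RWAT library, called 0 genes. The part of the spread from RWAT library 3 in the missing calls was not tested.

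Many of the genes called by other fits were also high in RWAT library 3, the white fat library with muscle markers. Among the 168 genes called by DESeq2, 132 (78.6%) also stood over 4 times above the highest IWAT library in RWAT library 3, against 441 of all 19154 genes (2.30%). Of the 691 genes separated higher in BAT, 240 (34.7%) did so. This set was defined after seeing the data, and its part in any single gene was not tested. In the creatine and calcium cycling list, which overlaps with muscle function, 13 of 14 genes were tested, 0 were called by edgeR, 4 by DESeq2 and 3 by edgeR without the RWAT libraries, and 5 were separated higher, with a median log2 fold change of 0.35 (-0.05 without BAT library 1). Atp2a1, the calcium pump of fast muscle, measured 1621, 1052 and 166.4 CPM in BAT, against 0.0996, 1.16 and 0.418 CPM in IWAT. Ckmt2, the mitochondrial creatine kinase of muscle, was at 68.8, 48.3 and 9.88 CPM in BAT and 0 counts in all IWAT libraries, at least 715-fold higher in BAT. Ryr1, the calcium release channel, measured 522.5, 316.6 and 60.8 CPM in BAT, against 0.747, 1.83 and 2.51 CPM in IWAT. Des, the filament desmin, was the separated smooth muscle list member higher in BAT, at 521.8, 381.4 and 70.2 CPM in BAT, against 14.4, 14.5 and 16.2 CPM in IWAT, and it is shared with skeletal muscle.

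**Figure D4:**
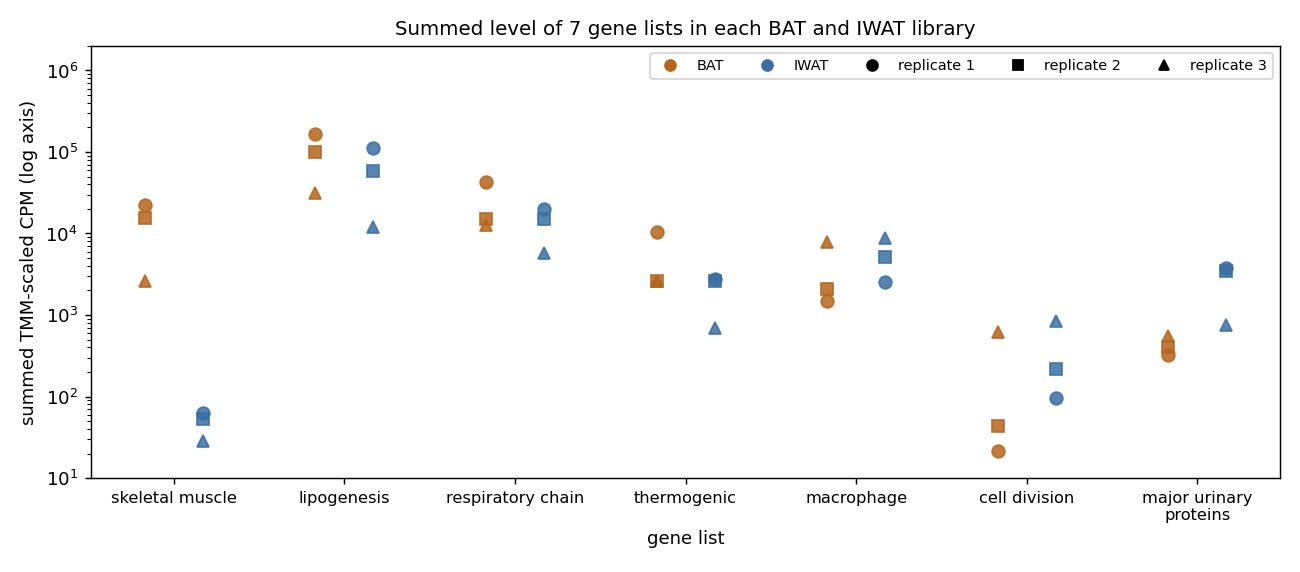
Summed level (vertical axis, TMM-scaled CPM, log scale) of 7 gene lists in each BAT library (brown, left of each pair) and IWAT library (blue, right), with a marker shape for each replicate. The muscle sums of BAT, 2612 to 22070, lie far above those of IWAT, 28.6 to 62.3, while lipogenic, macrophage and cell division sums overlap and differ widely between replicates.

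Of the 168 genes called by DESeq2, 36 were not over 4 times above the highest IWAT library in RWAT library 3. Some of these separated the depots. The 36 include Cox7a1 and Fabp3, which are also active in muscle, and the part of muscle in the 36 was not tested. Those named here were chosen after their values were seen, apart from Gmpr, Pde4a and Traf4. Lgr6, a receptor for R-spondins, measured 41.5, 1.05 and 6.60 CPM in BAT, against 0.399, 0.665 and 0.575 CPM in IWAT (edgeR log2 fold change 4.89, adjusted p = 0.733). Phospho1, a phosphatase of phosphocholine and phosphoethanolamine, measured 83.8, 11.2 and 15.7 CPM in BAT, against 6.38, 5.21 and 2.82 CPM in IWAT (2.94, edgeR adjusted p = 0.733). Both were highest in BAT library 1. Me3, the mitochondrial NADP-dependent malic enzyme, measured 41.8, 11.1 and 11.2 CPM in BAT, against 5.18, 5.65 and 6.74 CPM in IWAT. Car14, a carbonic anhydrase, measured 8.34, 1.44 and 1.03 CPM in BAT, against 0.149, 0.166 and 0.261 CPM in IWAT. Each of these genes had all 3 BAT libraries above all 3 IWAT libraries. Nos1, neuronal nitric oxide synthase, measured 13.3, 11.8 and 3.52 CPM in BAT, against 0.847, 1.77 and 1.72 CPM in IWAT. Perm1, a regulator of mitochondrial genes in muscle, also belonged to these 36 (edgeR log2 fold change 4.13, adjusted p = 0.733). Gmpr, a purine nucleotide reductase, measured 42.6, 9.88 and 16.4 CPM in BAT, against 5.68, 3.32 and 4.23 CPM in IWAT (2.38, edgeR adjusted p = 0.733). Pde4a, which breaks down cyclic AMP, measured 28.2, 15.1 and 14.7 CPM in BAT, against 7.72, 9.69 and 8.15 CPM in IWAT (1.18), and Traf4, a signalling adaptor, 58.3, 30.8 and 25.4 CPM in BAT, against 17.7, 18.9 and 13.9 CPM in IWAT (1.18).

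On the IWAT side, the separated genes with the smallest p differed by small amounts. Among these 10, Spon1, a secreted matrix protein, measured 20.2, 16.4 and 32.2 CPM in BAT, against 69.8, 35.9 and 55.1 CPM in IWAT (log2 fold change -1.22, edgeR adjusted p = 0.733). Gda, guanine deaminase, measured 194.2, 206.5 and 268.2 CPM in BAT, against 351.7, 339.5 and 320.9 CPM in IWAT (-0.60 with SE 0.18, edgeR adjusted p = 0.733), and DESeq2 gave 0.00308. Lyz1, a lysozyme, lay at 10.2, 11.4 and 13.2 CPM in BAT, against 21.7, 16.6 and 44.4 CPM in IWAT (-1.24). The other 7 were Osmr, Btg1, Casp12, Lrrk2, Nek6, Slc4a7 and Slco2a1, with log2 fold changes from -0.53 for Lrrk2 to -0.74 for Nek6, and none passed the edgeR test.

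Major urinary proteins, a liver-type family of secreted lipocalins with nearly identical members, had the lowest median of the 37 gene lists. All 11 tested members of 21 had negative log2 fold changes with a median of -2.61, 0 were called and 5 were separated. Mup10 measured 122.6, 204.1 and 279.3 CPM in BAT, against 1875, 1552 and 441.1 CPM in IWAT (log2 fold change -2.67, edgeR adjusted p = 0.998). Mup9 measured 63.0, 80.7 and 83.1 CPM in BAT, against 781.9, 716.1 and 128.7 CPM in IWAT (-2.84). IWAT library 3 lay near the BAT levels in both. The members are so alike that reads can be shared between them. The 11 tested members summed to 325.4, 407.5 and 560.3 CPM in BAT, against 3826, 3427 and 759.8 CPM in IWAT. That sum does not depend on how reads were divided among those 11. Untested members are left out of it, and none of them averaged above 0.846 CPM in either depot.

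Markers of other cell types differed widely between libraries of one depot. All 21 tested entries for the 20 macrophage and monocyte markers had negative log2 fold changes with a median of -0.49, and 0 were called by edgeR or DESeq2. The median was 0.11 without IWAT library 3 and -2.01 without BAT library 3. Itgam, an integrin of myeloid cells, has 2 entries, and the rarer one, averaging 0.169 CPM in BAT and 0.637 CPM in IWAT, was the 1 separated. They summed to 1497, 2103 and 7843 CPM in BAT, against 2532, 5104 and 8875 CPM in IWAT. Stromal progenitor and fibroblast markers (19 genes, median -0.17, and 0.11 without BAT library 1 or 0.08 without IWAT library 3, 0 separated) summed to 6600, 9985 and 34960 CPM in BAT, against 8928, 19010 and 32320 CPM in IWAT. The library numbered 3 thus had the highest macrophage and stromal sums and the lowest lipogenic sum in both depots, and the part of this in the spread of each depot was not tested. Endothelial markers (14 genes) had a median of -0.17 with 1 separated lower, smooth muscle and pericyte markers (11 genes) -0.06 with 1 separated in each direction, and neutrophil and mast cell markers (8 of 10 tested) -0.12 with 1 separated higher. The smooth muscle median was 0.06, 0.14 and 0.22 without BAT library 1, BAT library 2 and IWAT library 3, and the neutrophil median was 0.12, 0.13 and 0.08 without BAT library 1, IWAT library 2 and IWAT library 3. Of these lists edgeR called 0 genes and DESeq2 called 1, Des.

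Several B cell markers lay lower in every BAT library, at low levels. Of 14 tested B and plasma cell genes 0 were called by edgeR, 1 by DESeq2, and 4 were separated lower, with a median log2 fold change of -1.09. The log2 fold change was negative for 10 and positive for 4: Jchain (0.78), Mzb1 (0.73), Igkc (0.57) and Ighm (0.02). Ms4a1, which encodes CD20, measured 1.26, 2.62 and 1.96 CPM in BAT, against 11.2, 3.16 and 3.50 CPM in IWAT. The whole B cell list summed to 115.4, 173.2 and 116.8 CPM in BAT, against 201.4, 140.2 and 136.5 CPM in IWAT, which overlapped. Ighm was its largest member, averaging 92.3 CPM in BAT and 91.0 CPM in IWAT. Of 15 T and NK cell genes, with a median of -0.11 (0.18, 0.12 and 0.18 without BAT library 1, BAT library 2 and IWAT library 3), 0 were called by edgeR and 1 was separated, Trac, the T cell receptor alpha constant gene, which DESeq2 called (adjusted p = 0.00144). It measured 4.72, 4.78 and 2.25 CPM in BAT, against 0.598, 0.166 and 1.04 CPM in IWAT, while the defining marker Cd3e lay at 0.157, 0.262 and 0.734 CPM in BAT, against 0.797, 0.166 and 0.783 CPM in IWAT. Inguinal fat encloses a lymph node, whose marker list (8 tested, median -0.35 and 0.25 without IWAT library 1, 0 called by edgeR or DESeq2, 1 separated lower) summed to 77.9, 62.9 and 109 CPM in BAT, against 83.9, 58.4 and 46.8 CPM in IWAT. Most of that sum was Clu and Cxcl13, which averaged 56.4 and 23.1 CPM in BAT and 40.4 and 16.1 CPM in IWAT. Glycam1, a ligand of the node's high endothelial venules, was too low to test, with 2 counts in BAT against 40 counts in IWAT, a ratio of 16.9 for IWAT over BAT (exact 95% counting interval 4.39 to 144.0). Mesothelial (11 genes, sums 2.69 to 8.24 CPM in BAT and 3.92 to 6.26 CPM in IWAT) and epithelial markers (9 of 17 tested, 7.24 to 17.1 CPM in BAT and 8.09 to 11.9 CPM in IWAT) were low in all 6 libraries, with 0 calls by edgeR or DESeq2 and 0 separated. Their medians, -0.32 for the mesothelial list and -1.07 for the epithelial list (-0.17 with Cldn4, at 0 counts in BAT, set to its bound), changed sign with single libraries left out, from -1.39 to 1.18 for the mesothelial list without BAT or IWAT libraries in turn (positive without BAT library 1 or 3 or IWAT library 2 or 3), and to 0.39 without IWAT library 3 for the epithelial list.

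**Figure D5:**
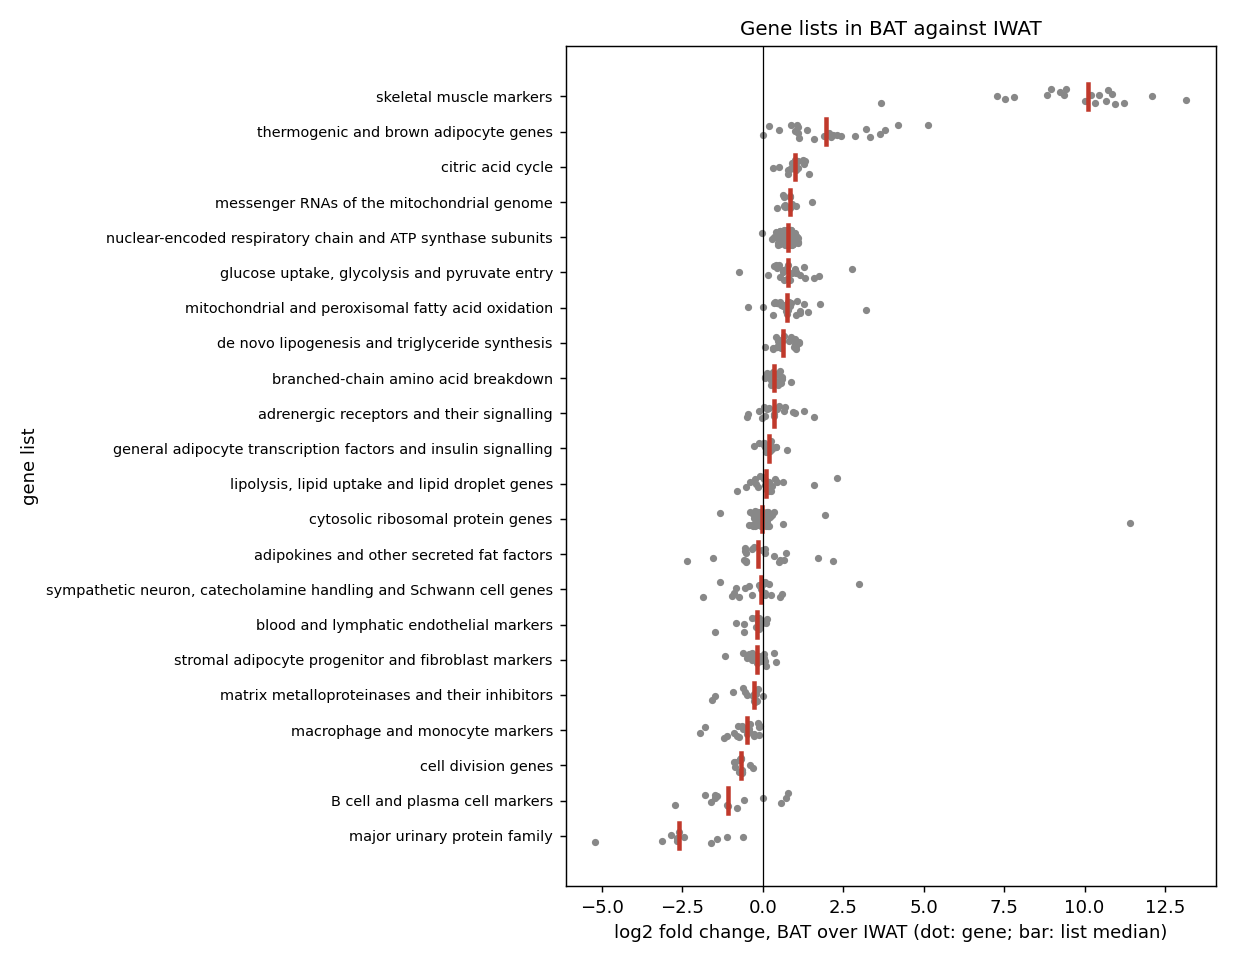
Log2 fold change of BAT over IWAT (horizontal axis) for each tested gene (dots) of 22 gene lists, with the list median as a bar. Muscle markers lie around 10.1 and thermogenic genes around 1.97, the major urinary proteins around -2.61, and most other medians lie within 1 of 0.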

How the data were processed

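Gene-level RNA-seq of 12 libraries of denervated mouse fat, 3 from each of 4 depots, was used. Per the labels' protocols, reads were single-end and 75 bases long. Per the submitters' processing notes, Trimmomatic 0.36, RSEM 1.3.0 and DESeq2 1.10.1 are named, and the build is GRCm38.p4. For the gene annotation and the strand setting nothing was stated (not given in the sources used here). What the authors deposited are RSEM expected counts per gene, not normalised, with the authors' TPM per gene and, per the file headers, a posterior SD of each count. The TPM served only to name the highest genes.

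Expected counts were rounded to whole numbers, so genes that share sequence depend on how RSEM divided their reads. The files hold 47729 genes, with symbols as deposited, and 47310 identifiers matched GENCODE M21 (GRCm38), which gave coordinates and gene types. Genes passing filterByExpr (19154) were scaled by TMM and tested with edgeR 4.0.16 (R 4.3.3) by the quasi-likelihood test in a fit of all 12 libraries, with the contrast BAT minus IWAT and Benjamini-Hochberg adjustment over all genes. Levels are TMM-scaled CPM. Named genes are a core set whatever their values, up to 10 per direction with separated libraries and mean log2 CPM no lower than 3, and the called members or 2 smallest p of each of 37 gene lists; genes outside this rule were chosen after their values were seen. These include Rps16-ps2, Gm12918, Rpl13, Mup10, Mup9, Trac, Tmem26, Sim1, Esrra, Th, Fasn, mt-Co1, Ryr1, Cd3e and the Hox and muscle genes beyond the rule. The depots, members and lists were chosen with earlier results of these data known. On simulated counts of 18780 genes for BAT against IWAT, the test found 4% of the genes given a 2-fold change. It found 52% of those given 4-fold, 72% of those given 8-fold and 88% of those given 16-fold. There, 4 of 112 calls were false, and unchanged data gave 0 calls. Each gene was drawn on its own, so the simulation lacked the differences across many genes between replicates seen here. These shares therefore need not hold for the real libraries, where the fit of 12 libraries called none of the 20 muscle markers. No pair of libraries of a depot agreed within sampling noise. Alternatives were DESeq2 1.42.0, limma-voom (limma 3.58.1), other scalings and filters, fewer libraries, a replicate block and leaving out each BAT and IWAT library.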

Additional observations from a re-analysis of the deposited data

How the results depend on the processing

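Against 2 calls as reported (2 higher and 0 lower in BAT), DESeq2 called 168 genes (161 higher, 7 lower), edgeR without the 3 RWAT libraries 92 (87 higher, 5 lower), library sizes without TMM 1 higher and 1 lower, and no low-count filter 4 (1 lower). The 6 libraries alone and the fit without EWAT gave 0 calls, with 556 and 595 genes at an unadjusted p under 0.05; the cause was not tested. Leaving out RWAT library 3 gave 97 (93 higher, 4 lower) and summing the Rps16 copies 1 higher, both chosen after seeing the data. Leaving out each BAT or IWAT library gave 0 to 1 calls, all higher. Limma-voom, RLE scaling, the filter of 1 CPM in 3 libraries and scaling without mitochondrial and muscle genes each called 2. The medians of 20 of the 37 lists changed sign when some single library was left out.

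As a replicate block the replicate number gave 0 calls in 12 libraries, with 942 genes at an unadjusted p under 0.05. In the 6 libraries it gave 178 calls (167 higher, 11 lower). There 2753 genes (15.8%) stood at an unadjusted p under 0.05, against 556 (3.19%) without the block. Same-numbered BAT and IWAT libraries deviated from their depot means with correlations across genes of 0.60, -0.02 and 0.68. Between library 1 of one depot and library 3 of the other the correlation was -0.65 both ways. BAT library 2 correlated best with IWAT library 1 (0.15). Deviations from a mean of 3 libraries depend on each other, so these correlations cannot decide whether the numbers pair the samples. The main fit used no block because the labels do not say that they do. Whether same-numbered libraries shared a mouse or a batch was not tested.

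Of 148 named genes, 9 changed direction under some alternative, none of them called as reported. The log2 fold change of Adipoq was 0.12 with limma-voom, 0.0203 in the 6 libraries, 0.0208 without EWAT, 0.11 and 0.14 with the block in 12 and 6 libraries, and -0.43 to 0.30 leaving out 1 library. That of Hbb-bs was 0.0359 with limma-voom, 0.036 and 0.0885 with the block in 12 and 6 libraries, and -0.37 to 0.47 leaving out 1. Lep was at 0.0598 with the block in 12 libraries and -1.04 to 0.73 leaving out 1, and Alas2 at -0.0907 without TMM and -0.11 to 0.68 leaving out 1. Leaving out 1 library gave -0.20 to 0.56 for Prdm16 and -0.0798 to 0.57 for Pparg, both lowest without IWAT library 3 and also negative without BAT library 1, and -0.0766 to 1.12 for Cebpb, negative without BAT library 1. It gave -3.54 to 0.47 for Mki67 and -3.83 to 0.43 for Ccna2, each highest without IWAT library 3. Cldn4, with 0 counts in BAT and 4 in IWAT, had fitted values of -4.08 to 0.00 that are no exact folds, and it did not turn positive. Depth limits the rarest genes, such as Th and Hoxc10 in BAT, where a few counts carry a value.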

Other observations

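Cell division genes differed widely between replicates in both depots. The 14 cell division genes all had negative log2 fold changes with a median of -0.67, 0 were called and 0 separated, and the median was 0.52 without IWAT library 3 and -3.61 without BAT library 3. They summed to 21.7, 43.4 and 617.4 CPM in BAT, against 94.6, 220.2 and 846.3 CPM in IWAT. Mki67, a marker of cycling cells, measured 6.06, 16.4 and 198.6 CPM in BAT, against 32.6, 74.3 and 305.5 CPM in IWAT, and the library numbered 3 was the highest in each depot.

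Several housekeeping and signalling lists differed little. The 80 tested cytosolic ribosomal protein genes had a median log2 fold change of -0.03 (0.10 without BAT library 2) with 1 edgeR call, Rps16 (DESeq2 called 2 members, Rps16 and Rpl3l), and 3 separated higher, among them Rpl3l, the muscle-specific form of a ribosomal protein, at 31.6, 18.6 and 4.26 CPM in BAT and 0 counts in all IWAT libraries, at least 305-fold higher in BAT. Clock genes (17) had a median of 0.24 (0.02 without TMM) with 0 called and 0 separated, and red blood cell genes (6) 0.00 with 0 called and 0 separated (-0.28 to 0.50 leaving out 1 library). Immediate early genes (16) had a median of -0.47 with 0 called, and Nr4a1, a nuclear receptor induced by adrenergic signals, was their separated member, at 20.9, 5.95 and 6.90 CPM in BAT, against 1.10, 4.43 and 4.54 CPM in IWAT (log2 fold change 1.74, edgeR adjusted p = 0.998). Matrix metalloproteinases and their inhibitors (16) all had negative values with a median of -0.27, 0 called and 0 separated. Secreted Wnt and BMP modulators (19 of 22 tested) had a median of -0.28, 0 called and 1 separated lower.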
